A study of Mus musculus with 2 samples.

Results

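The 6 genes described here encode pore-forming subunits of ion channels linked to cardiac pacemaking: *Hcn2*, *Hcn3* and *Hcn4* of the HCN family, and *Cacna1d*, *Cacna1g* and *Cacna1h* of the voltage-gated calcium channels. They were taken by name from the GENCODE M21 annotation (GRCm38/mm10), as 6 of its 21938 protein-coding genes. Accessible chromatin was profiled by ATAC-seq, in which a transposase inserts adapters into open DNA, in wildtype FVB mouse hearts at E11.5 (49 to 51 somites). The study made 2 replicates of 2 pooled hearts each, and both belong to the same group, with no treatment or mutant allele. No test between conditions was therefore possible, and no p-value is given. Values are instead compared with the difference between the replicates and with all protein-coding genes.

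HCN channels open when the membrane is hyperpolarized and carry the funny current, an inward current that drives the slow depolarization of pacemaker cells. Among them, *Hcn4* is the main isoform of the sinoatrial node and is already transcribed in the early heart tube. Calcium channels take over later in the same depolarization: *Cacna1d* encodes an L-type channel that opens at more negative voltages than the L-type channel of the working myocardium, and *Cacna1g* and *Cacna1h* encode T-type channels. Transcription factors such as SHOX2, TBX3 and ISL1 set the pacemaker program, and NKX2-5 favours the working one. In whole hearts the pacemaker cells are a minor population. A low value in such bulk tissue can come from few open cells or from weak opening in many cells, and these cannot be told apart here.

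The files are lists of peaks called in each replicate, 118027 in replicate 1 and 114783 in replicate 2. Each peak carries a fold enrichment, which is the authors' pileup of reads at the summit over a genome-wide background, and all values below are on this linear scale. A single read was worth 0.272 of fold enrichment in replicate 1 and 0.251 in replicate 2. A shared region is the part of a replicate 1 peak that a replicate 2 peak also covers, and 98924 such regions were found in the genome. Among those with both summits inside, the replicates differed by a median factor of 1.17, and by less than 1.51 in 90% of regions. All 6 cardiomyocyte, 4 endothelial and 3 epicardial marker genes had a shared region at a start, as did 2 of 3 blood, 2 of 3 neural, 1 of 3 liver and 1 of 2 skeletal muscle markers, beside 67.6% of all protein-coding genes. No shared region lay at a start of *Ptprc*, *Elavl3*, *Alb*, *Afp* or *Myf5*. The part of other cell types in the results was not tested.

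All 6 genes had a shared region within 1 kb of at least 1 annotated transcript start, a state found at 67.6% of protein-coding genes. The signal at these starts was modest. The highest region at a start of *Cacna1h* was enriched 18.2-fold in replicate 1 and 14.8-fold in replicate 2. At *Cacna1g* it reached 13.3 and 13.1, and at *Hcn4* 13.6 and 9.80. The T-type channel genes and *Hcn4* thus headed the order. *Hcn3* followed with 10.3 and 9.05, *Cacna1d* with 8.96 and 8.80, and *Hcn2* was lowest with 5.43 and 6.28. The median of the 6 genes was 11.8 in replicate 1 and 9.43 in replicate 2, beside a median of 24.4 and 24.6 over the 14820 protein-coding genes with a region at a start. All 6 lay below that median in both replicates, at percentiles from 3.89 (*Hcn2*) to 33.0 (*Cacna1h*) in replicate 1 and from 7.79 to 26.9 in replicate 2. These percentiles count only genes that have such a region.

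**Figure D1:**
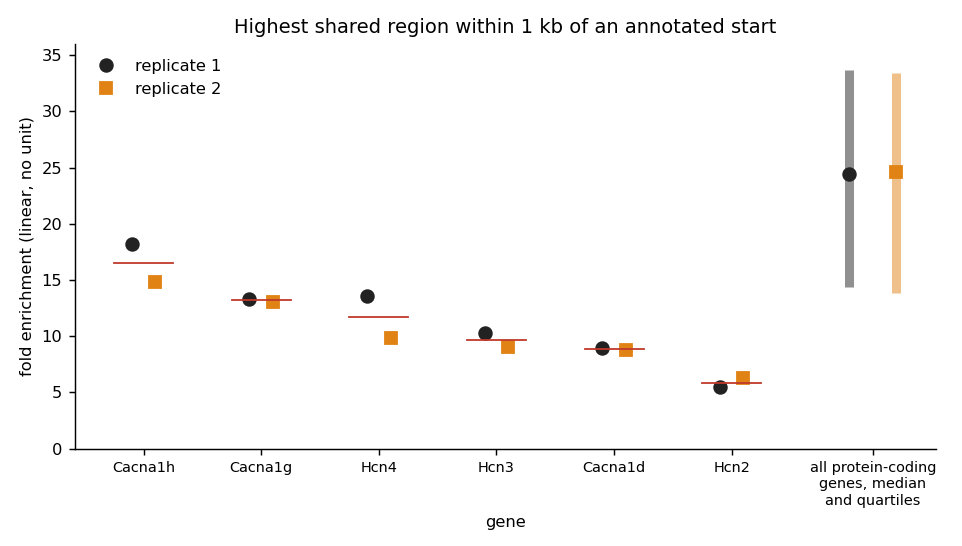
Fold enrichment (linear axis) of the highest shared region within 1 kb of an annotated start of each gene, with replicate 1 as circles, replicate 2 as squares and their mean as a red line. At the right, bars span the quartiles over 14820 protein-coding genes (14.4 to 33.7 in replicate 1 and 13.8 to 33.4 in replicate 2) and symbols mark the medians, above every value of the 6 genes.

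Among the 15 pairs of the 6 genes, the replicate ranges did not overlap in 13. Over all pairs of protein-coding genes this share was 90.9%, so the separation is not particular to these genes. The ranges overlapped between *Hcn4* and *Hcn3* and between *Hcn4* and *Cacna1g*, and the latter pair also changed order between the replicates. *Hcn3* and *Cacna1d* did not overlap but differed by a factor of 1.15 in replicate 1 and 1.03 in replicate 2, less than the usual difference between replicates. The *Cacna1d* value here comes from a start of a non-coding transcript, and at its highest coding start (9.78 and 6.28) the range overlapped that of *Hcn3* and met that of *Hcn2*, so these separations rest on that choice. *Cacna1h* exceeded *Hcn2* by a factor of 3.35 and 2.36, more than the factor of 1.51 that 90% of regions stay under. The start regions also differed in length. They spanned 1673 bp at *Hcn4* and 1735 bp at *Cacna1h*, longer than the median of 1351 bp over all genes. Those of *Hcn3*, *Cacna1d*, *Cacna1g* and *Hcn2* spanned 762, 797, 539 and 310 bp. Peak boundaries divided the promoter into 2 shared regions at *Hcn3* and 3 at *Cacna1g*, so these lengths cover only a part of it. At the coding starts of *Cacna1d* the regions spanned 542 and 294 bp.

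The annotation lists 30 distinct starts for the 6 genes, and 17 of them had a shared region within 1 kb, beside 58% of the starts of all protein-coding genes. Of the 11 starts that belong to protein-coding transcripts 10 were reached, beside 63.6% over all genes. The coding start without a region is that of the transcript Cacna1h-207, which lies 53.1 kb inside the gene. The others without a region are starts of retained-intron, processed or nonsense-mediated decay transcripts in the gene bodies. *Hcn2* and *Hcn4* each have a single annotated start, so that every start was reached in these 2 of the 6 genes, beside 28.8% of protein-coding genes. *Hcn3* had 2 of 4, *Cacna1d* 7 of 10, *Cacna1g* 3 of 7 and *Cacna1h* 3 of 7.

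Each gene was then viewed with 50 kb on each side. The 6 windows together cover 1250 kb and held 92 shared regions. Of these, 12 lay within 1 kb of an own start, 26 within 1 kb of the start of another protein-coding gene, 26 elsewhere in the gene bodies and 28 elsewhere in the flanks. Regions away from every protein-coding start, called distal below, thus made up 54 of the 92 or 58.7%, beside 78.9% of the shared regions of the genome. The genome share also takes in stretches far from any gene, so these shares do not come from like windows. The mean fold enrichment of the distal regions over both replicates had a median of 6.07, beside 5.74 for distal regions of the genome. Of the 26 distal regions in the gene bodies, 23 touched no exon of the gene.

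**Figure D2:**
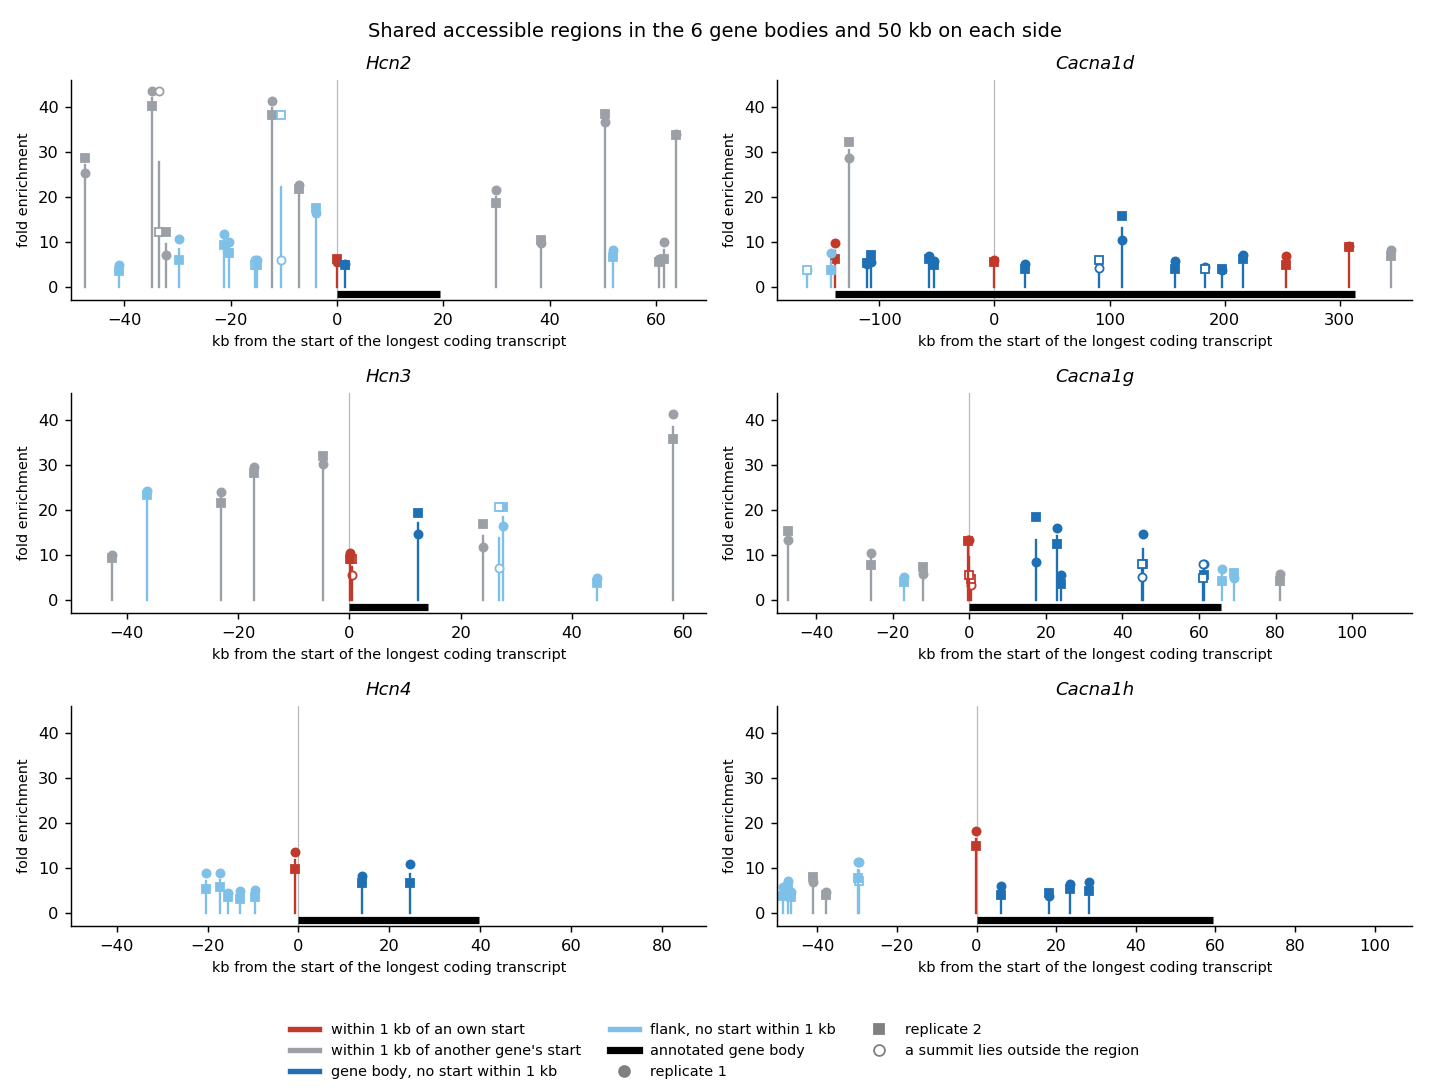
Shared regions in the 6 windows by distance from the start of the longest coding transcript (kb, along the direction of transcription) and fold enrichment (linear axis). Circles are replicate 1, squares replicate 2, stems end at their mean, colours give the class of the region and black bars the gene bodies. Open symbols mark regions in which the summit of at least 1 covering peak lies outside the shared part. The highest stems at *Hcn2* and *Hcn3* are starts of other genes, and the right side of the *Hcn4* panel is empty.

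**Figure D3:**
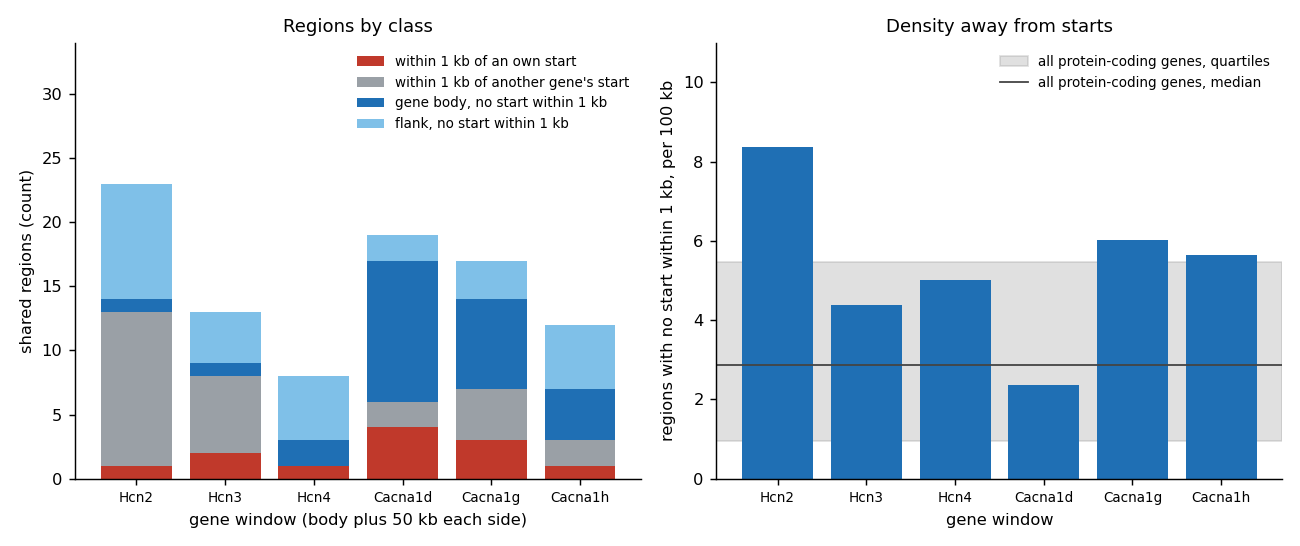
Left, number of shared regions per gene window by class, from 8 at *Hcn4* to 23 at *Hcn2*. Right, distal regions per 100 kb of window, with the median (2.87) and quartiles over all protein-coding genes as a line and a grey band. Only the *Cacna1d* bar ends below the median.

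*Hcn4* (chr9:58823412-58863175, plus strand) had the fewest regions of the 6 windows, 8 in 139.8 kb, and none of them lay at the start of another gene. Its promoter region, chr9:58822360-58824032, had the value of 13.6 and 9.80 given above, with its summits 0.711 kb upstream of the start on average. In intron 1, 14.0 kb downstream of the start, a region of 8.15 in replicate 1 and 6.54 in replicate 2 was found. A further region in intron 2, at 24.5 kb, reached 10.9 and 6.54. The remaining 5 regions formed a row upstream, between 20.4 and 9.44 kb from the start, with 4.35 to 8.96 in replicate 1 and 3.02 to 5.78 in replicate 2. Replicate 1 had the higher value at all 8 regions, as it had at 67.4% of shared regions of the genome with both summits inside. Replicate 1 alone held another 5 peaks in the window, none above 5.70, and replicate 2 held none. Without replicate 2 the window thus had 13 regions, as many as that of *Hcn3*, and 12 distal ones in place of 7.

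Downstream of intron 2 no shared region was found over the rest of *Hcn4* and its 3′ flank. The next one lay 187.3 kb away at the start of *Neo1*, with 17.4 and 14.8. The part of this gap inside the window measures 65.1 kb and held 2 peaks of replicate 1 alone. Shared regions in the *Hcn4* window were therefore found at its promoter, upstream of it and in its first introns. Whether the upstream regions belong to *Hcn4* was not tested. At 5.01 distal regions per 100 kb, the window was at percentile 72.1 of protein-coding genes. The sequences around the summits at the promoter and in both introns are given because these are the shared regions at and inside the gene. They are from GRCm38, plus strand, 5′ to 3′, and capitals mark matches on either strand to short letter patterns. For the factor families named they are GATAA for the GATA factors, AGGTGT for the T-box factors, AAGTG for the NKX2 factors, CTATTTA for the MEF2 factors, GGAATG for the TEAD factors, TGACAG for the MEIS factors and TAATTA for other homeodomain factors, and GGGCGG is the GC box. The same patterns are marked in the later sequences.
*Hcn4* promoter, chr9:58822626-58822776: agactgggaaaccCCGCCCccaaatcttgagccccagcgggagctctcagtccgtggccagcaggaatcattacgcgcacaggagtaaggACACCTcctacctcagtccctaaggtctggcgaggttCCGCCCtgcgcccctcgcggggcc
*Hcn4* intron 1, chr9:58837266-58837466: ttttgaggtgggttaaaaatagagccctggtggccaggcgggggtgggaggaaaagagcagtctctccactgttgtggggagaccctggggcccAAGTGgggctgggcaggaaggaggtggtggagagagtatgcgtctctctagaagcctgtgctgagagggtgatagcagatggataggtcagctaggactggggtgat
*Hcn4* intron 2, chr9:58847802-58848002: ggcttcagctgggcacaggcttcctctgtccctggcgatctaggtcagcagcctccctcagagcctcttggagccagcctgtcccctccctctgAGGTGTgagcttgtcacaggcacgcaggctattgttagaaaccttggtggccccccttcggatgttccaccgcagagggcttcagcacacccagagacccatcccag
The promoter sequence holds a T-box match and GC boxes on each side of it. The intron 1 sequence holds an NKX2 match, and the intron 2 sequence a T-box match.

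*Hcn2* (chr10:79716634-79736108, plus strand) lies in the most crowded window, with 23 shared regions in 119.5 kb. At 19.3 regions per 100 kb it was at percentile 98.3 of protein-coding genes. Of the 23 regions, 12 lay at starts of other genes, and the 10 distal ones, at 8.37 per 100 kb, were still at percentile 90.3. By the mean of both replicates, the highest were those of *Cdc34*, a ubiquitin-conjugating enzyme, with 43.5 and 40.2, and of *Bsg*, the membrane glycoprotein basigin, with 41.3 and 38.2. The *Hcn2* start itself had 5.43 and 6.28 over 310 bp, and its gene body held a single distal region, in intron 1, with 5.16 and 4.78. The *Hcn2* start was thus weaker than those of *Cdc34* and *Bsg*. Other neighbours were less accessible than these, with 21.5 and 18.6 at the *Polrmt* start and 9.78 and 10.3 at that of *Fgf22*. The highest distal region with both summits inside, chr10:79711990-79713392, lay between *Bsg* and *Hcn2*, 3.93 kb upstream of the *Hcn2* start, with 16.3 in replicate 1 and 17.6 in replicate 2. It exceeded the *Hcn2* start by more than the replicates differed at either site. A region 10.5 kb upstream is listed with 5.98 and 38.2, but its replicate 2 value is that of the broad *Bsg* peak, whose summit lies outside. The sequence of the upstream region is shown because its values are far above those of the *Hcn2* promoter.
*Hcn2* upstream, chr10:79712600-79712800: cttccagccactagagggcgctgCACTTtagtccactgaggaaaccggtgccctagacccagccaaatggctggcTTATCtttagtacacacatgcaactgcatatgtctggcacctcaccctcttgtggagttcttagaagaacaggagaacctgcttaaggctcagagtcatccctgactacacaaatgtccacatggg
It holds a match to the NKX2 and a match to the GATA pattern, both on the minus strand. To which of the neighbouring genes the region belongs was not tested.

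*Hcn3* (chr3:89146074-89160196, minus strand), the shortest of the 6 genes at 14.1 kb, also had closely spaced neighbours. Its window held 13 shared regions, of which 6 lay at starts of other genes. The starts of *Fdps*, an enzyme of isoprenoid synthesis, reached 41.3 and 35.7, and those of the kinase gene *Clk2*, 4.68 kb upstream of *Hcn3*, 30.2 and 31.9. The *Hcn3* promoter had 10.3 and 9.05, and a second, weaker replicate 1 peak of 5.43 lay under the same replicate 2 peak, just downstream. The highest region of the gene was not at the promoter. It covered chr3:89147503-89148269 in coding exon 8, the last exon, 12.4 kb from the start, and reached 14.7 in replicate 1 and 19.4 in replicate 2. Both values were above both values at the promoter. In the flanks, an intergenic region 36.5 kb upstream had 24.2 and 23.4, and another 27.6 kb downstream had 16.3 and 20.6. The 3 sites were thus more accessible than the promoter in both replicates, and for the upstream site the replicates differed least.
*Hcn3* exon 8, chr3:89147737-89147937: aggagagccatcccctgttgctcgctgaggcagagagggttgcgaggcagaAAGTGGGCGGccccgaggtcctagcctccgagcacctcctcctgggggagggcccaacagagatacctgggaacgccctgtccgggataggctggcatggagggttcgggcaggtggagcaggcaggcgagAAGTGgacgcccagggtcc
*Hcn3* upstream, chr3:89196558-89196758: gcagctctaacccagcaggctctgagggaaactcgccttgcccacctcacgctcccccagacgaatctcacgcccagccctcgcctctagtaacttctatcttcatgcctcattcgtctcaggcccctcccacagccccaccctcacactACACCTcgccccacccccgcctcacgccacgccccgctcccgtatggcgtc
The exon sequence is shown because it carries the highest region of the gene. It holds an NKX2 match on each side of its middle, the first of which shares a base with a GC box. The upstream sequence holds a T-box match.

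*Cacna1d* (chr14:30039939-30491455, minus strand) is by far the longest of the 6 genes, at 451.5 kb, and had the lowest density. Its window held 19 shared regions, 3.45 per 100 kb, at percentile 33.4 of protein-coding genes, and 2.36 distal regions per 100 kb. The count depended on the overlap of the replicates, since replicate 1 alone gave 31 regions, 23 of them distal, and replicate 2 alone 26 and 20, against 13 distal regions shared by both. Coding transcripts start at both ends of a stretch of 138 kb. At the upstream start a region of 294 bp had 9.78 and 6.28, and at the downstream starts, where the longest coding transcript begins, a region of 542 bp had 5.98 and 5.53. These ranges did not overlap. The value of 8.96 and 8.80 given above belongs to neither of them, but to a region of 797 bp at the start of a retained-intron transcript near the 3′ end, 308 kb downstream of the start of the longest coding transcript. With coding starts only, the mean of *Cacna1d* was 8.03.

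The body of *Cacna1d* held 11 distal regions, none of them touching an exon of the gene, more than any other of the 6. By length this made 2.44 per 100 kb, at percentile 53.6 of genes of at least 10 kb. In 10 of them the values stayed between 3.80 and 7.06 in replicate 1 and between 4.02 and 7.04 in replicate 2. The exception was chr14:30242195-30243088 in intron 3, 110.5 kb downstream of the start of the longest coding transcript, with 10.3 and 15.8. It was above each of the start regions of the gene in both replicates. The highest region inside the annotated body, with 28.5 and 32.2, was the start of *Dcp1a*, an mRNA decapping factor whose gene overlaps the 5′ end of *Cacna1d*. The sequence of the intron 3 site is shown as the highest distal site of the gene.
*Cacna1d* intron 3, chr14:30242413-30242613: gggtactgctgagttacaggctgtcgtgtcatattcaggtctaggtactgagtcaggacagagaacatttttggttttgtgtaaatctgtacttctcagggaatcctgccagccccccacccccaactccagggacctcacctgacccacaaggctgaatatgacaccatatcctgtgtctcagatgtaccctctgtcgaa
None of the patterns was found in this stretch.

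*Cacna1g* (chr11:94408391-94474198, minus strand) had the densest set of distal regions in its body, 7 in 65.8 kb or 10.6 per 100 kb, at percentile 89.9 of genes of at least 10 kb. Of these 7, 2 take a value from a peak that spans them but has its summit in the shared region beside them. With a reciprocal overlap of 50% the window held 11 shared regions in place of 17, and 6 distal ones in place of 10. At the promoter, peak boundaries divided the accessible stretch into 3 shared regions within 1 kb of the coding starts. The highest of them, chr11:94474130-94474668, had 13.3 and 13.1. In intron 9, chr11:94450903-94451745 reached 16.0 and 12.3, and chr11:94456157-94456777 reached 8.42 and 18.4. The latter differed by a factor of 2.18 between replicates, the largest of the 79 regions of the 6 windows with both summits inside. In intron 22 a region had 14.7 and 8.04, a factor of 1.82. The *Cacna1g* introns therefore held sites with values like those of its promoter, and their order relative to the promoter changed with the replicate. The distal regions in the flanks stayed at or below 6.79 in replicate 1 and 6.03 in replicate 2.
*Cacna1g* intron 9, first site, chr11:94451158-94451358: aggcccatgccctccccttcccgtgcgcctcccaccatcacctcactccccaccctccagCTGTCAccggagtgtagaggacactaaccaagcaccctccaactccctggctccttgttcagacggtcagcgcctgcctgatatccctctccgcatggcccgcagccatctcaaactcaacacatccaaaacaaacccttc
*Cacna1g* intron 9, second site, chr11:94456456-94456656: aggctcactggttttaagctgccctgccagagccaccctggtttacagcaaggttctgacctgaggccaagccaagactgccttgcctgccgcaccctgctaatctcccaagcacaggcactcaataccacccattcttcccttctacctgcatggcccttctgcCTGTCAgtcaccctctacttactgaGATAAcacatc
Both intron 9 sequences, shown as the highest distal sites of the gene, hold a MEIS match, and the second also holds a GATA match.

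*Cacna1h* (chr17:25374285-25433783, minus strand) had the highest and longest promoter region of the 6, chr17:25432957-25434691, with 18.2 and 14.8. All 4 distal regions of its body lay in intron 2, between 6.25 and 28.3 kb from the start, with 3.80 to 6.79 in replicate 1 and 4.02 to 5.28 in replicate 2. They were thus well below the promoter. From the innermost of them to the far edge of the window, over 81.0 kb that include the 3′ part of the gene, no shared region was found, and 1 peak was seen in a single replicate. Upstream, the highest distal region lay 29.8 kb from the start in the tektin gene *Tekt4*, with 11.4 and 7.79.
*Cacna1h* promoter, chr17:25433806-25433956: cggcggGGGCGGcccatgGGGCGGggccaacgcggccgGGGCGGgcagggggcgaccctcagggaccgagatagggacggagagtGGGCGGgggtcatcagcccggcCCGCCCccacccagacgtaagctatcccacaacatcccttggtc
*Cacna1h* intron 2, chr17:25410324-25410524: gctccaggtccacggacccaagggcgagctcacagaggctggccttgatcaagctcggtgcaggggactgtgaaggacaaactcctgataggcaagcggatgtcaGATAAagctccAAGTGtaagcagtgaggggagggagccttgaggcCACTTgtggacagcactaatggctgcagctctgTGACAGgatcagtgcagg
The promoter sequence, shown as that of the highest start, holds 5 GC boxes. The intron 2 sequence holds matches to the GATA, NKX2 and MEIS patterns.

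**Figure D4:**
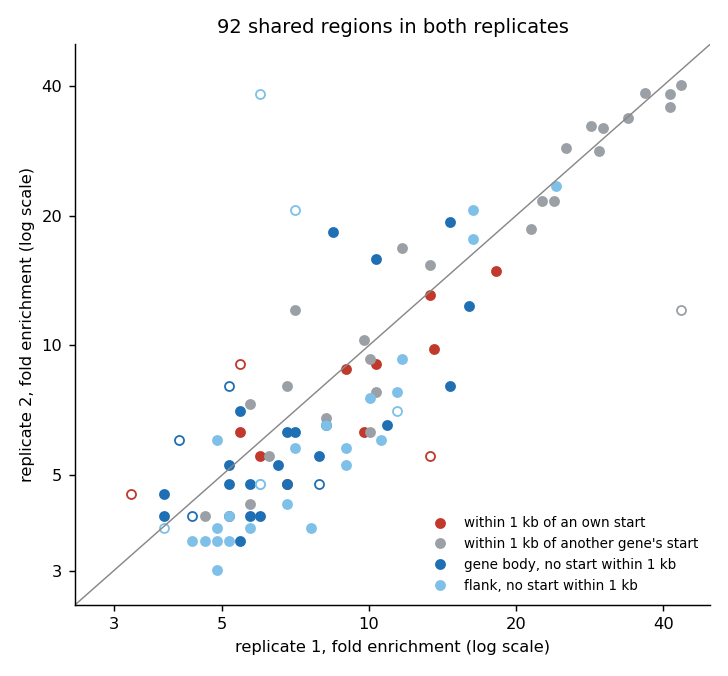
Fold enrichment of the 92 shared regions in replicate 1 (horizontal, log scale) and replicate 2 (vertical, log scale), coloured by class as in the legend, with the line of equal values. Open symbols are the regions with a summit outside. Among the 79 others, replicate 1 was higher in 58.

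Both summits lay inside the region in 79 of the 92, beside 88% of the shared regions of the genome. The replicates differed by a median factor of 1.25 over these 79 regions, and 14 of them differed by more than the factor of 1.51 that marks the upper 10% of the genome. Replicate 1 was higher in 73.4% of them, beside 67.4% of the genome. A further 28 peaks in the 6 windows were found in replicate 1 alone and 16 in replicate 2 alone. None of these exceeded 6.25 in replicate 1 or 5.28 in replicate 2, beside a median of 5.70 and 5.03 over all peaks of these lists. The highest of them in the *Hcn2* window, with 6.25 in replicate 1, lay 0.467 kb downstream of the *Hcn2* start and was above the shared start region in that replicate (5.43).

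Motif matches were counted within 150 bp of the middle of the summits, on both strands. Of the 45 distal regions of the 6 windows with both summits inside, 21 (46.7%) held a GATA match, beside 46.6% of the 68598 distal shared regions of the genome with both summits inside. An NKX2 match was found in 24 (53.3%, beside 56.9%), a MEIS match in 19 (42.2%, beside 32%), a TEAD match in 9 (20%, beside 22.9%) and a T-box match in 8 (17.8%, beside 13.2%). GC boxes were found in 7 (15.6%, beside 10%). None held a MEF2 (4.08% of the genome's), a homeodomain (4.67%) or a REST match (CAGCACC followed after 2 bases by GGACAG, 0.13%). Of the 9 own start regions with both summits inside, 6 held a GC box (66.7%, beside 57.9% of start regions of the genome chosen in the same way), 4 an NKX2 match (44.4%, beside 39.5%), 3, all at *Cacna1d*, a GATA match (33.3%, beside 17.9%), 1 a MEIS match (11.1%, beside 18%) and 1, at *Hcn4*, a T-box match (11.1%, beside 10.1%). None held a TEAD match, beside 12.5%. The *Cacna1d* start regions with a GATA match include those in introns 46 and 27. These lie at starts of a retained-intron and a nonsense-mediated decay transcript, deep inside the gene. The shares of GATA at starts and of MEIS in distal regions were above those of the genome and that of TEAD at starts below it, but each rests on few regions and none of these differences was tested.

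To place the 6 genes among their relatives, 17 genes of calcium channels and of HCN partners were examined, and 14 of them had a shared region at a start, beside 67.6% of protein-coding genes, with a median mean fold enrichment of 15.2. Among the other pore-forming subunits, *Cacna1c*, the L-type channel of the working myocardium, had 23.1 and 18.9, and the neuronal *Cacna1a* had 28.2 and 27.9. Both were above *Cacna1d*, *Cacna1g* and *Cacna1h*. *Cacna1b* reached 14.1 and 16.1, *Cacna1s* 14.4 and 8.80, and *Cacna1e* 7.33 and 6.54. No shared region lay at a start of *Cacna1f*, a channel of the retina, or of *Cacna1i*, the third T-type channel gene, whose whole window held none. The T-type genes thus ranged from the highest start of the 6 to a locus with no shared region.

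The beta subunits, which bring the pores to the membrane, all had a start region, from 8.42 at *Cacnb3* to 22.0 at *Cacnb2* in replicate 1 and from 9.05 to 18.9 in replicate 2. Of the alpha2delta subunits, which modulate the same channels, 3 of 4 had one, the highest at *Cacna2d1* with 25.0 and 28.2, and *Cacna2d4* had none. *Pex5l*, which encodes the HCN trafficking partner TRIP8b, reached 29.3 and 27.2, whereas *Kcne2*, an accessory subunit, had 7.61 and 3.77. Among the regulators of pacemaker cells, all 6 had a start region, beside the same 67.6%. *Shox2* had 18.2 and 17.8, *Tbx3* 25.5 and 19.6, *Tbx18* 24.2 and 22.4, and *Isl1* 29.3 and 28.9, all above the values of *Hcn4*. *Nkx2-5* had 11.95 and 9.30 and *Tbx5* 5.43 and 4.78.

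**Figure D5:**
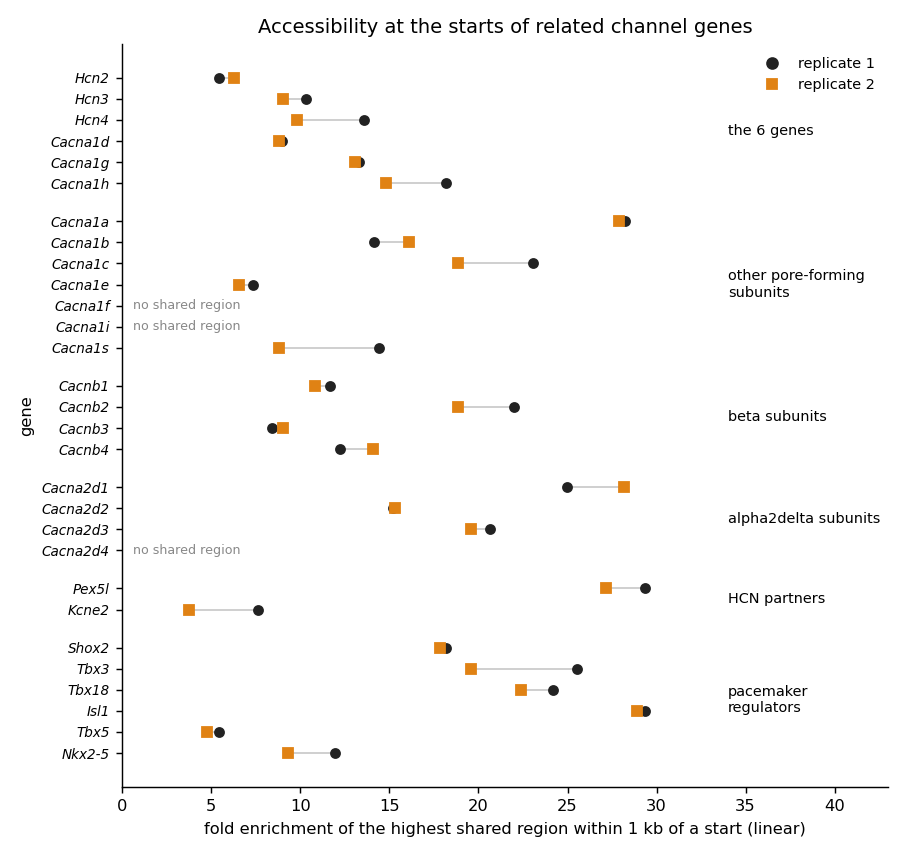
Fold enrichment (linear axis) of the highest shared region within 1 kb of a start, for the 6 genes, 17 genes of calcium channels and HCN partners in 4 classes, and 6 regulators of pacemaker cells. Circles are replicate 1 and squares replicate 2, joined by a line. *Cacna1f*, *Cacna1i* and *Cacna2d4* had no shared region at a start, and *Isl1*, *Pex5l* and *Cacna1a* have the highest means of both replicates.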

How the data were processed

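ATAC-seq peak lists of 2 replicates of E11.5 hearts were analysed. As the study's methods state, reads were trimmed (Trim Galore 0.6.6, Cutadapt) and aligned to GRCm38/mm10 (Bowtie2 2.4.2), PCR duplicates and poorly mapped reads were dropped (SAMtools 1.12), and the authors ran MACS2 on each replicate without a local background. Sites in repeated sequence are therefore underrepresented. The deposited lists give for each peak a fold enrichment (a ratio), the −log10 p-value and −log10 q-value at the summit, and a score, which is the authors' −log10 q-value scaled by 10. The largest p-values and the shortest peaks differ from the limit and the extension length in the methods, so the lists were used as deposited. They give no read totals. The spacing of the fold enrichment values gave backgrounds of 2.68 (replicate 1) and 2.98 reads (replicate 2), the lowest peak had 9 reads, and no counting interval was computed.

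Replicate 1 peaks were trimmed to the parts covered by replicate 2 peaks (bedtools 2.31.1, at least 1 bp) and merged where they touch. A region takes the value of the highest overlapping peak of each replicate. Starts and gene bodies came from GENCODE M21, and introns and exons are numbered along the longest coding transcript. Sequence came from the GRCm38 reference. The rule for what the text may name covered every start, the highest start region, up to 4 distal regions in the body and 3 in the flanks with the highest mean values, neighbouring genes, and related channel genes. Most starts without a region and the weaker distal regions are given as counts and ranges. The members and gene lists were chosen with earlier results of these data known, and 2 genes of the lists are not reported here. Whether the 2 replicates share a litter is not given in the sources used here, and their difference may be technical.

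Alternatives were p-value and q-value limits, a reciprocal overlap of 50%, each replicate alone, summits in place of any overlap, start windows of 500 bp and 2 kb, coding transcripts only, flanks of 0 and 100 kb, and base pairs. Regions with both summits inside, and coding starts for the fold enrichment, were chosen after seeing the data. On simulated data, the code that intersects peaks was tested first. Python 3.11.15, NumPy 2.4.6, pandas 2.3.3, pysam 0.24.0 and Matplotlib 3.10.9 were used.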

Additional observations from a re-analysis of the deposited data

How the results depend on the processing

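Of 99 combinations of a result and an alternative, 89 stayed within the limits set for a like value. For counts the limit was a fixed factor, and for fold enrichment the standard deviation of both replicate values. A single replicate stays within the latter by construction where the same peak leads. Counts in base pairs were labelled as changed beforehand, so the tally is not by itself a measure of stability. A q-value limit of 1e-10 left 50 shared regions in the 6 windows (of 92) and 22 distal ones (of 54). In the genome it left 45264 of 98924 shared regions. The *Hcn2* start was then no longer reached, so that 5 genes kept a start region. The missing fold enrichment of *Hcn2* under this limit was left out of the 99 combinations. Gene bodies alone held 39 shared and 26 distal regions, flanks of 100 kb raised the shared regions to 142, and counted in base pairs the shared regions covered 59504 bp and the distal ones 24123 bp, which is a change of unit. With starts of protein-coding transcripts only, 10 of 11 starts were reached in place of 17 of 30, and the mean of *Cacna1d* changed from 8.88 to 8.03, since another region then leads.

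Leaving out either replicate gave 17 to 18 starts, 103 to 115 regions and 67 to 73 distal regions, and a *Cacna1d* start value of 8.80 to 9.78. *Hcn4* had 13 regions in replicate 1 alone, against 8 in replicate 2 alone and 8 shared. No paired analysis was possible because there is only 1 group, of 2 samples. *Cacna1d* had 31 and 26, against 19 shared. The lists give no read totals, and how depth limits the weak sites was not tested.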

Other observations

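The longest stretches without a shared region differed between the 6 windows, from 16.3 kb at *Hcn3* and 27.9 kb at *Hcn2* to 65.1 kb at *Hcn4* and 81.0 kb at *Cacna1h*, and they were 34.3 kb at *Cacna1g* and 64.3 kb at *Cacna1d*. Those of *Hcn4*, *Cacna1g* and *Cacna1h* reach the edge of the window and are therefore lower limits. At *Cacna1s*, the calcium channel of skeletal muscle, 31 shared regions lay in the window, 25 of them distal, or 15.0 distal regions per 100 kb, beside 8.37 at *Hcn2*, the highest of the 6 genes. Only 3 of these 25 lay in the *Cacna1s* body, or 4.47 per 100 kb, and the others lay in the flanks.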
